A study of Mus musculus with 4 samples.

Results

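The heat shock chaperones described here are 10 genes of the mouse liver table, taken by name whatever their values: Hspa1a, Hspa1b, Hspa8, Hsp90aa1, Hsph1, Dnajb1, Hspb1, Hspd1, Hspe1 and Bag3. All 10 were found among the 25655 genes of the table, and all 10 were among the 12967 genes with enough reads for the comparison of genotypes. The study compared livers of ADAR2+/+/GluR-BR/R mice (wild type, HFD-WT) with livers of ADAR2-/-/GluR-BR/R mice (ADAR2 KO, HFD-KO), with 2 libraries per group. ADAR2 is an enzyme that edits adenosine to inosine in RNA, and mice without it die early unless they carry the edited allele of the glutamate receptor subunit GluR-B, which both groups carried. All mice were males on a B6129S background from crosses of heterozygous parents, and ate a high-fat diet (HFD) for 12 weeks from the age of 5 weeks. The knockout was in every tissue. The paper's legend for its gene set analysis of these livers gives more mice per group than the 2 libraries here. The sources used here do not say how many mice went into a library, so the spread between libraries of a group may be partly technical.

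Cells make heat shock proteins to fold other proteins and to keep damaged ones from aggregating. When proteins unfold, heat shock factor 1 (HSF1) is released from chaperones, binds heat shock elements in promoters and raises the inducible members of the family within minutes. HSP70 proteins hold unfolded stretches in an ATP cycle that HSP40 proteins (DNAJ) start and exchange factors end. HSP90 matures kinases and steroid receptors, small heat shock proteins hold aggregating proteins without ATP, and HSP60 with HSP10 forms a folding chamber in mitochondria. In liver, HSPA8, HSPD1 and HSPE1 are made at all times, while HSPA1A and HSPA1B are low at rest and rise under stress.

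The total count was between 24480798 and 28691330 per library, of reads counted on genes. Values per library are CPM, the count scaled to a common library size, computed with TMM normalization, and they compare libraries, not genes. A count of 3 corresponded to between 0.104 and 0.126 CPM, a limit that covers counting error only. Adarb1, the gene of ADAR2, had 454 and 545 counts in HFD-WT and 164 and 228 counts in HFD-KO (log2 fold change -1.17, SE 0.20, edgeR adjusted p = 0.159), so both HFD-KO libraries were below both HFD-WT libraries, as their labels say, with reads left whose place on the gene was not analysed here. The 6 hepatocyte markers summed to between 79795 and 93900 CPM, and the 5 markers of muscle and fat to at most 0.518 CPM. Markers of other liver cells differed between libraries. The 7 Kupffer cell markers summed to 227 and 290 CPM in HFD-WT and to 180 CPM in each HFD-KO library. The 5 B and plasma cell markers summed to 120 CPM in HFD-KO replicate 1 and to between 14.8 and 17.4 CPM in the other libraries, and the 5 erythroid markers to 1146 CPM in HFD-KO replicate 2 and to between 600 and 811 CPM in the others. No marker was at 0 in all libraries. In bulk tissue, fewer cells of a type and less RNA per cell cannot be told apart.

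The first question was whether the chaperone genes differ between HFD-WT and HFD-KO livers. None of the 10 was called. By edgeR's quasi-likelihood test, 0 of 10 had an adjusted p under 0.05, where 10 of all 12967 genes tested (0.0771%) passed, and 0 of 10 had an unadjusted p under 0.05, where 4.25% of all genes passed as higher in HFD-KO and 4.73% as lower. DESeq2's Wald test also gave 0 of 10 at both thresholds. The groups overlapped for 10 of 10 genes, meaning that 0 of 10 had both HFD-KO libraries above both HFD-WT libraries (20.5% of all genes) and 0 of 10 had both below (20.3% of all genes). The latter count depended on the scale. Both HFD-KO libraries were below both HFD-WT libraries for 2 of 10 (Hspb1 and Hspd1) with library size alone, where 27.7% of all genes were below and 13.8% above. On deposited TPM, a scale added after the data were seen, the same held for 2 of 10 (Hspb1 and Hspe1), where 30.7% of all genes were below and 11.4% above. The median log2 fold change of the 10 genes was 0.08 and that of all genes tested was 0.01. The smallest adjusted p among the 10 was 0.786, for Hspb1. With 2 libraries against 2, an exact permutation test cannot give a p below 0.333, so none was run for single genes. These counts depended on single libraries. Over all genes the test called 0 without HFD-WT replicate 2, 705 without HFD-KO replicate 1 and 411 without HFD-KO replicate 2, and of the 10 chaperone genes it called 0, 2 and 0. At an unadjusted p under 0.05, 1 of the 10 passed without HFD-WT replicate 2 (Dnajb1, higher in HFD-KO, as were 1.92% of all genes), 4 without HFD-KO replicate 1 (Hspa1b, Hsph1, Hsp90aa1 and Bag3, higher, as were 8.25%) and 1 without HFD-KO replicate 2 (Hspa1b, lower, as were 5.63%). Without HFD-WT replicate 1, 0 passed. The HFD-KO values stood above the HFD-WT values for 0 of the 10 without HFD-WT replicate 1 (35.5% of all genes), 6 without HFD-WT replicate 2 (32.0%), 6 without HFD-KO replicate 1 (38.3%) and 1 without HFD-KO replicate 2 (36.6%).

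**Figure D1:**
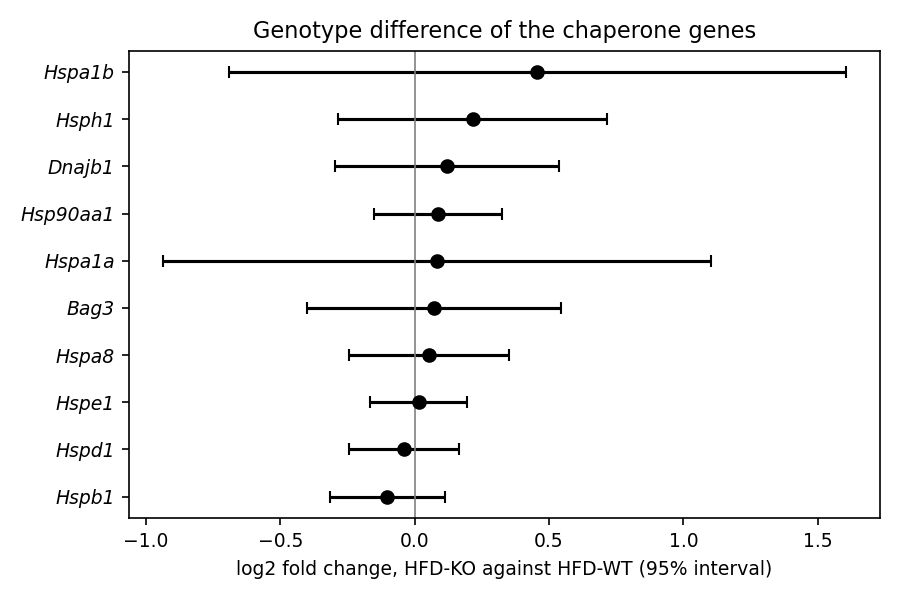
Log2 difference between genotypes (HFD-KO over HFD-WT) for each of the 10 chaperone genes (points). Bars give an approximate 95% interval derived from edgeR's test over 2 libraries per group. All 10 intervals include 0, and they are widest for Hspa1b (-0.69 to 1.60) and Hspa1a (-0.93 to 1.10).

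The width of the intervals sorted the genes. A difference between the genotypes was bounded closely for Hspe1 (log2 fold change 0.01, 95% interval -0.16 to 0.19), Hspd1 (-0.04, -0.25 to 0.17), Hspb1 (-0.10, -0.31 to 0.11) and Hsp90aa1 (0.09, -0.15 to 0.32). Hspa8 (0.05, -0.25 to 0.35) was a little less closely bounded. For the inducible HSP70 genes the interval was so wide that a 2-fold rise in HFD-KO could not be told from no change at this number of libraries.

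Levels between genes were compared per length, as TPM deposited by the authors. Hspa8, the constitutive HSP70 of the cytosol, had a mean of 1164 TPM over the 4 libraries (range 1053 to 1271 TPM) and took between 58.1% and 60.4% of the summed TPM of the 10 genes. Hspd1 (HSP60) followed with a mean of 294 TPM and Hspe1 (HSP10) with 247 TPM, and the ranges of these 3 genes lay apart. Hspb1, a small heat shock protein, had 82.9 TPM and Hsp90aa1, the inducible cytosolic HSP90, had 80.8 TPM, with ranges that overlapped each other. Below them were Bag3 with 25.9 TPM, Hsph1 with 22.9 TPM, Hspa1b with 22.3 TPM and Dnajb1 with 17.6 TPM, and neighbours in this order overlapped in range. Hspa1a was lowest, with 1.39 TPM (range 0.741 to 2.02 TPM), apart from all others.

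**Figure D2:**
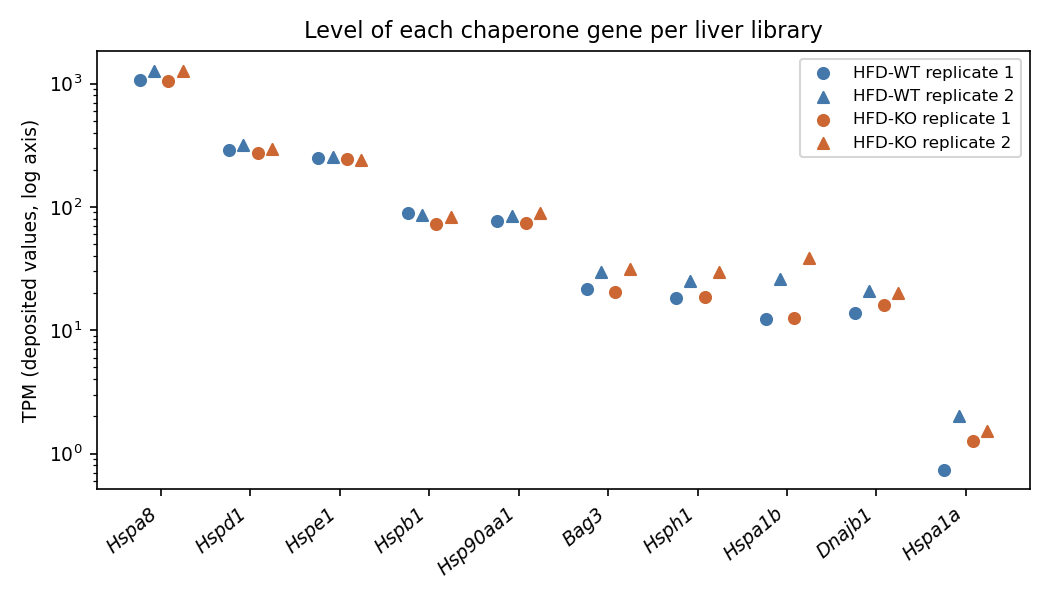
Deposited TPM (log axis) of each chaperone gene in each of the 4 liver libraries, ordered by the mean. The genes run from Hspa8 at 1053 to 1271 TPM down to Hspa1a at 0.741 to 2.02 TPM, blue and orange symbols intermix for 8 of the 10 genes, the orange ones lie below the blue ones for Hspb1 and Hspe1, and the 4 symbols of Hspa1b spread from 12.2 to 38.1 TPM.

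Hspa1a and Hspa1b encode the stress-inducible HSP70 of the cytosol and nucleus. They lie on the minus strand of chromosome 17 (GRCm39, positions 35188166 to 35191132 and 35175412 to 35178214), with 9951 bases between them, and Hspa1l, a related HSP70 gene, starts 546 bases from Hspa1a. The 250 bases before the transcript start of each are shown because both genes hold a heat shock element there and because the pair is near-identical even outside the coding sequence. The sequences are those of RefSeq on GRCm38.p6, at chr17:34972157-34972406 and chr17:34959239-34959488, both on the minus strand and read 5′ to 3′. The capitals mark 1 pair of heat shock element half-sites, GAANNTTC, which begins 104 bases before the start in both.
Hspa1a: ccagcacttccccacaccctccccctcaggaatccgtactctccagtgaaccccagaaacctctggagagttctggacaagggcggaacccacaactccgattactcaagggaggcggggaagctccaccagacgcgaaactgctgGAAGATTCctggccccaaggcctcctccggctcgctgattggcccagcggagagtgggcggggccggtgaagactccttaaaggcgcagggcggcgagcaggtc
Hspa1b: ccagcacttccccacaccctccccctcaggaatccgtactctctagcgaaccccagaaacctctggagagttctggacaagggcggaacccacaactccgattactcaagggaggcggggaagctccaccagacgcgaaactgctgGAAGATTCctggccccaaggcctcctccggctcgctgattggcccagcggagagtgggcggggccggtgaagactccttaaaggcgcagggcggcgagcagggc
These 250 bases were identical at 247 positions and differed at 3.

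Hspa1b had 499 and 989 counts in HFD-WT and 485 and 1305 counts in HFD-KO. These correspond to 17.2 and 36.0 CPM in HFD-WT and to 18.4 and 54.6 CPM in HFD-KO, a mean of 26.6 ± 13.2 CPM (SD, n = 2) and of 36.5 ± 25.6 CPM (SD, n = 2). Each genotype had 1 low and 1 high library, the low libraries were close to each other, and the groups overlapped. Within HFD-WT, replicate 2 was 2.09-fold above replicate 1 (95% interval from counting error 1.87 to 2.33), and within HFD-KO 2.97-fold (2.67 to 3.30). Between the genotypes the fold was 1.37 (log2 fold change 0.46, SE 0.49, edgeR adjusted p = 0.825), less than either difference within a genotype. The spread of Hspa1b between libraries of a group was a biological coefficient of variation of 0.337, above that of 98.9% of the genes tested and above the value of 0.0855 that edgeR's trend gives a gene of this level. The genotype result depended on which HFD-KO library was used. Without HFD-KO replicate 1 the log2 fold change was 1.04 (edgeR adjusted p = 0.000272), and without HFD-KO replicate 2 it was -0.53 (edgeR adjusted p = 0.274), against a range of the adjusted p from 0.000272 to 0.9999 over all alternatives.

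Hspa1a had 32 and 81 counts in HFD-WT and 52 and 55 counts in HFD-KO, or 1.10 and 2.94 CPM and 1.98 and 2.30 CPM. HFD-WT held both the lowest and the highest library, and the HFD-KO libraries lay between them. The difference within HFD-WT was 2.66-fold (counting interval 1.75 to 4.15), while within HFD-KO it was 1.17-fold (0.783 to 1.74), which is within counting error. Between genotypes the log2 fold change was 0.08 (SE 0.43, edgeR adjusted p = 0.973).

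Reads of this pair are uncertain in their assignment. The longest reading frames of Hspa1a and Hspa1b, of 1926 and 1929 bases, were identical at 1918 positions (99.58%), and of all stretches of 100 bases, the read length, in the transcripts of Hspa1a 47.1% also occur in Hspa1b (GENCODE M21). How the counting treated reads that match both genes is not given in the sources used here. Of the reads given to the pair, Hspa1a took 6.03% (Wilson 95% interval 4.30% to 8.38%) and 7.57% (6.13% to 9.31%) in HFD-WT and 9.68% (7.46% to 12.5%) and 4.04% (3.12% to 5.23%) in HFD-KO. The summed reads do not depend on that split. The sum was 18.3 and 38.9 CPM in HFD-WT and 20.4 and 56.9 CPM in HFD-KO, again with 1 low and 1 high library in each genotype (log2 fold change 0.43, SE 0.48, edgeR adjusted p = 0.830). Together the inducible pair made up 1.20% and 2.17% of the cytosolic HSP70 level per length (Hspa1a, Hspa1b and Hspa8, TPM) in HFD-WT and 1.29% and 3.03% in HFD-KO. Hspa1l had at most 6 counts in a library. Gm20481, annotated on the opposite strand over 2225 bases of Hspa1a, had 0 counts in all 4 libraries.

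Hsph1, Dnajb1 and Bag3 encode partners of HSP70. HSPH1 (HSP110) is its nucleotide exchange factor and also holds unfolded proteins, DNAJB1 is the HSP40 that delivers proteins to it and starts its ATP cycle, and BAG3 links it to small heat shock proteins and selective autophagy. Hsph1 lies on the minus strand of chromosome 5 (GRCm39, 149537752 to 149559841), Dnajb1 on chromosome 8 (84334822 to 84339282) and Bag3 on chromosome 7 (128125340 to 128148705). For all 3, replicate 2 was above replicate 1 in both genotypes, as for Hspa1b.

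Hsph1 had 39.1 and 52.5 CPM in HFD-WT and 41.7 and 64.7 CPM in HFD-KO. The library with the highest value and the second lowest were both HFD-KO, so the groups overlapped. Replicate 2 was 1.34-fold above replicate 1 in HFD-WT (counting interval 1.24 to 1.45) and 1.55-fold in HFD-KO (1.44 to 1.68), and the genotypes differed by a log2 fold change of 0.22 (SE 0.21, edgeR adjusted p = 0.805). Without HFD-KO replicate 1 the log2 fold change was 0.50 (edgeR adjusted p = 0.00766), and over all alternatives it ran from -0.13 to 0.50, with an adjusted p from 0.00766 to 0.9999. The RefSeq sequence around its start (GRCm38.p6, chr5:149636351-149636380, minus strand) is shown for its pair of half-sites in the other orientation, TTCNNGAA, in capitals.
Hsph1: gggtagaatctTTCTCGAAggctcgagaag
The pair begins 33 or 54 bases before the start, depending on which of the RefSeq starts is taken.

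Bag3 had 27.8 and 37.6 CPM in HFD-WT and 27.7 and 41.1 CPM in HFD-KO. The low libraries of both genotypes were nearly level, and the high ones were 1.35-fold (counting interval 1.23 to 1.48) and 1.48-fold (1.35 to 1.63) above them. Between genotypes the log2 fold change was 0.07 (SE 0.20, edgeR adjusted p = 0.943). A gene on the same strand that overlaps Bag3 over 612 bases, 2610306O10Rik, had at most 5 counts. Dnajb1 had 22.3 and 32.5 CPM in HFD-WT and 26.8 and 32.8 CPM in HFD-KO. Here the low library of HFD-KO stood above that of HFD-WT and the high libraries were level. Replicate 2 was 1.46-fold above replicate 1 in HFD-WT (counting interval 1.32 to 1.62) and 1.22-fold in HFD-KO (1.10 to 1.36), and the genotypes differed by a log2 fold change of 0.12 (SE 0.18, edgeR adjusted p = 0.879).

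Hspa8 (chromosome 9, GRCm39, 40712280 to 40721383) and Hsp90aa1 (chromosome 12, minus strand, 110657039 to 110669162) encode the major HSP70 and the inducible HSP90 of the cytosol. Hspa8 had 1368 and 1591 CPM in HFD-WT and 1412 and 1654 CPM in HFD-KO. The groups overlapped, with 1 lower and 1 higher library in each, 1.16-fold and 1.17-fold apart. This difference within a genotype was outside counting error (intervals 1.15 to 1.18 and 1.15 to 1.19), and the genotypes differed by a log2 fold change of 0.05 (SE 0.13, edgeR adjusted p = 0.933). Hsp90aa1 had 144 and 155 CPM in HFD-WT and 146 and 172 CPM in HFD-KO, and its groups overlapped too (log2 fold change 0.09, SE 0.10, edgeR adjusted p = 0.842). Processed copies share much of these transcripts: 56.6% of the 100-base stretches of Hspa8 and 40.7% of those of Hsp90aa1 occur in other annotated genes, none of which is listed in the table.

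Hspd1 and Hspe1 encode HSP60 and HSP10, the barrel and the lid of the mitochondrial chaperonin, which work as a complex. They lie head to head on chromosome 1 (GRCm39, Hspd1 on the minus strand at 55116994 to 55127402, Hspe1 on the plus strand at 55127291 to 55130466), overlap by 112 bases and share a promoter. Before the start of Hspe1 is a cluster of 3 overlapping pairs of half-sites, shown as read on the strand of Hspe1 (RefSeq, GRCm38.p6, chr1:55088053-55088082, plus strand) with the cluster in capitals. It begins 89 bases before the start of Hspe1, and read on the other strand it begins 144 bases before 1 of the RefSeq starts of Hspd1 and lies after the other, whose window holds no such pair. Annotated untranslated regions of Hspd1 and Hspe1 transcripts (GENCODE M21) cover all 250 bases of the 2 windows that hold the cluster.
Hspe1: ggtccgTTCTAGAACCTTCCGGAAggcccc
Hspd1 had 385 and 412 CPM in HFD-WT and 377 and 398 CPM in HFD-KO (log2 fold change -0.04, SE 0.09, edgeR adjusted p = 0.926). Hspe1 had 96.1 and 96.4 CPM in HFD-WT and 98.8 and 95.7 CPM in HFD-KO (log2 fold change 0.01, SE 0.08, edgeR adjusted p = 0.973). On this scale both genes overlapped between the groups, and the 4 values of Hspe1 were almost level. The coefficient of variation of Hspe1 between libraries of a group, 0.0760, was lower than that of most genes, at percentile 13.2. The ratio of Hspd1 to Hspe1 in TPM was 1.18 and 1.25 in HFD-WT and 1.12 and 1.22 in HFD-KO.

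Hspb1 encodes HSP25 (the mouse form of HSP27), an ATP-independent small heat shock protein that also binds actin. It lies on chromosome 5 (GRCm39, 135916773 to 135918417). The 250 bases before its start are shown because they hold 2 separate pairs of half-sites, GAANNTTC, at 117 and 97 bases before the start, in capitals (RefSeq, GRCm38.p6, chr5:135887669-135887918, plus strand).
Hspb1: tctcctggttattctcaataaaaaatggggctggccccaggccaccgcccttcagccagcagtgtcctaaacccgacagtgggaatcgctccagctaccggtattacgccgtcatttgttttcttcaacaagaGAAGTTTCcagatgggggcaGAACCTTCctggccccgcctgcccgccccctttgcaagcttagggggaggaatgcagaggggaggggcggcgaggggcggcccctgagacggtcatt
Hspb1 had 45.9 and 43.6 CPM in HFD-WT and 39.5 and 44.0 CPM in HFD-KO. HFD-KO held the lowest library, but its other library lay between the HFD-WT libraries, so the groups overlapped (log2 fold change -0.10, SE 0.09, edgeR adjusted p = 0.786). It was the only 1 of the 10 genes whose replicate 2 was not above replicate 1 in HFD-WT, at 0.950-fold (counting interval 0.878 to 1.03). Of its 100-base stretches, 44.0% also occur in a pseudogene that the table does not list.

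A second description concerns the libraries rather than the genotypes. The highest library was HFD-KO replicate 2 for 6 of the 10 genes, and the lowest was HFD-WT replicate 1 for 6. Replicate 2 was above replicate 1 in both genotypes for 8 of 10 genes (80.0%), and over all genes for 2978 of the 12943 genes with counts in every library (23.0%). The exceptions were Hspb1 and Hspe1. On the log2 scale, the median difference of replicate 2 from replicate 1 over the 10 genes was 0.32 in HFD-WT and 0.23 in HFD-KO, where the median over all genes was 0.00 in each and the median size regardless of sign was 0.12 and 0.15. The numbers do not pair the libraries, so the match between the genotypes is a description of these 4 libraries. The part of these libraries' cell makeup in it was not tested. The endothelial markers followed the same libraries, with sums of 208 and 230 CPM in HFD-WT and 200.5 and 221 CPM in HFD-KO, and replicate 2 was above replicate 1 in both genotypes for 5 of 6 of them (83.3%). It was so for 2 of 7 Kupffer cell, 1 of 6 hepatocyte and 1 of 5 erythroid markers, and for 0 of 6 stellate, 0 of 5 cholangiocyte and 0 of 5 B and plasma cell markers.

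**Figure D3:**
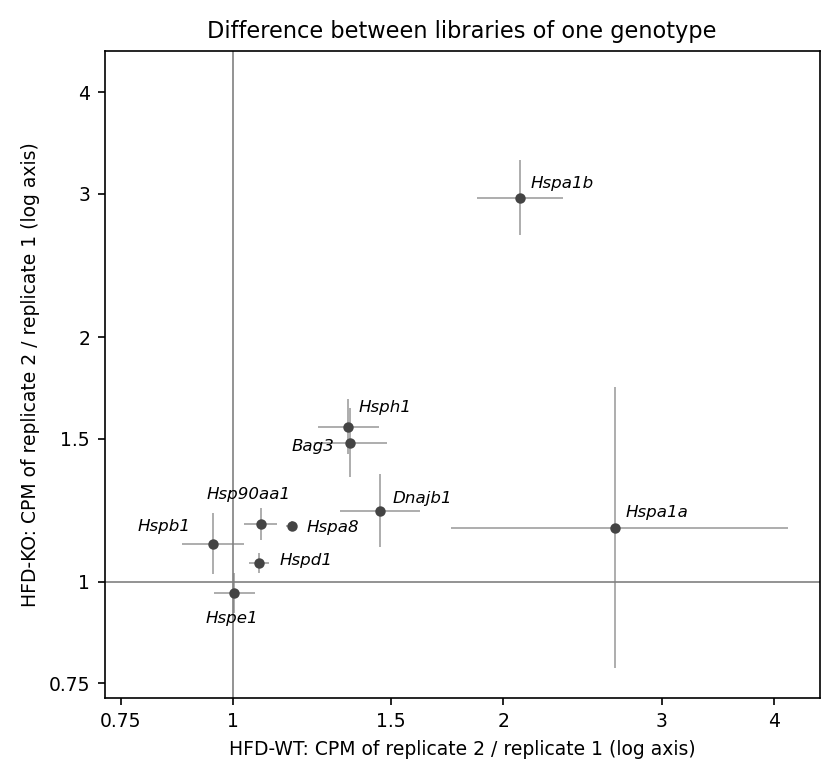
Each chaperone gene by its CPM ratio of replicate 2 to replicate 1 in HFD-WT (horizontal, log axis) and in HFD-KO (vertical, log axis), with 95% counting intervals as bars and lines at a ratio of 1. Hspa1b lies farthest up at 2.09 and 2.97, Hsph1 follows at 1.34 and 1.55 and Bag3 at 1.35 and 1.48, and Hspe1 lies at 1.004 and 0.968.

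Apart from Hspa1a in HFD-WT, the differences within both genotypes were largest for Hspa1b, Hsph1, Bag3 and Dnajb1, while the ratios for Hspe1, Hspd1 and Hspb1 lay between 0.950 and 1.11. The median coefficient of variation of the 10 genes between libraries of a group was 0.116, and that of all genes tested was 0.0925. The 10 genes together took 0.217% and 0.251% of all counts in HFD-WT and 0.217% and 0.250% in HFD-KO.

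Heat shock elements were looked for in the 250 bases before the RefSeq starts. HSF1 binds arrays of the 5-base unit NGAAN in alternating direction, and a pair of units gives GAANNTTC (head to head) or TTCNNGAA (tail to tail). Both words read the same on either strand, so 1 search covers both, and in a longer array the words overlap. Of the 10 genes 8 have a window, since Hspa8 and Hsp90aa1 were not matched, and 6 of these 8 hold at least 1 word: Hspa1a, Hspa1b, Hsph1, Hspb1, Hspd1 and Hspe1. Over all 32851 windows of this length, GAANNTTC occurs in 6.69%, TTCNNGAA in 7.17% and either in 12.8%. A window with 3 or more matches, as that of Hspe1 and 1 of those of Hspd1, occurs in 0.14%. These shares are per window, while the 6 of 8 is per gene. Hsph1, Dnajb1 and Hspd1 have 2 windows each, so the figures are not like for like. Windows of Dnajb1 and Bag3 held neither word, which says only that these letters are not in these windows. Some windows reach into annotated transcripts, with 34 untranslated bases in 1 window of Dnajb1, and with those given above for Hsph1, Hspd1 and Hspe1. Of the genes with the largest differences within both genotypes, Hspa1b and Hsph1 held 1 word each, and Bag3 and Dnajb1 none. Of those with ratios near 1, Hspe1 and Hspd1 held the same 3 overlapping words and Hspb1 held 2. A relation of the words to the differences between libraries was not tested.

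**Figure D4:**
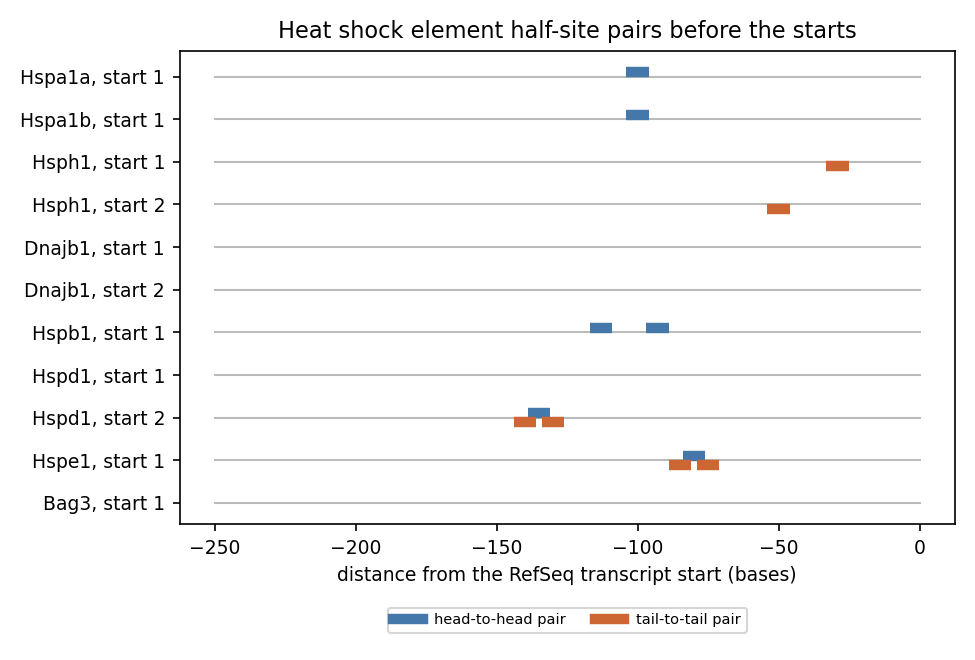
Positions of heat shock element half-site pairs in the 250 bases before each RefSeq start of the 8 chaperone genes with a window (distance from the start in bases; blue, head to head; orange, tail to tail). Pairs lie at -104 in Hspa1a and Hspa1b, at -117 and -97 in Hspb1 and in clusters of 3 in Hspd1 and Hspe1, and Dnajb1 and Bag3 have none.

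The rest of the chaperone system was described from 10 lists with 140 genes, none of them among the 10, of which 127 were tested. They include 3 cold-induced RNA-binding genes. The list of 14 endoplasmic reticulum chaperones is kept apart from these 10 lists and is given below, with 2 genes higher in HFD-KO. At an unadjusted p under 0.05, HFD-KO was higher for 0 of the 127 genes and lower for 2. These counts are below the shares of all genes given above, and 0 passed after adjustment. Among them Fkbp5, an HSP90 cochaperone that glucocorticoids induce, had 88.6 and 164 CPM in HFD-WT and 40.2 and 68.5 CPM in HFD-KO. Both HFD-KO libraries were below both HFD-WT libraries (log2 fold change -1.22, SE 0.32, edgeR adjusted p = 0.341). The median log2 fold change of the 127 genes was 0.02. The counts of higher and lower genes changed when single libraries were left out, and so did the shares of all genes at the same threshold.

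By role, the medians of these 10 lists lay between -0.05 and 0.13. Some genes are in more than 1 list. The median log2 fold change was -0.05 for 10 other HSP70 and HSP110 genes and 0.02 for 37 other DNAJ genes. It was 0.04 for 21 HSP90 genes and cochaperones and 0.04 for 11 BAG and exchange factors. For 5 other genes named as small heat shock proteins or their partners it was -0.03. For 15 subunits of the cytosolic chaperonin CCT and prefoldin it was -0.02, and for 15 mitochondrial chaperones and proteases -0.04. The 20 other targets of HSF1 had a median of -0.02. The 3 cold-induced RNA-binding genes had a median of 0.13 and all 3 overlapped between the groups. Of 10 HSF genes and regulators, 7 had both HFD-KO values above the HFD-WT values (20.5% of all genes) and 1 had both below (20.3%), with a median of 0.10 and 0 at an unadjusted p under 0.05. The next genes, Hsf1 and Hsp90ab1, were chosen after their values were seen. Hsf1 itself had 15.2 and 13.5 CPM in HFD-WT and 15.95 and 15.53 CPM in HFD-KO, without overlap (log2 fold change 0.14, SE 0.10, edgeR adjusted p = 0.734). Hsp90ab1, the constitutive partner of Hsp90aa1, had 912 and 935 CPM in HFD-WT and 880 and 950 CPM in HFD-KO, with overlap.

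Across these lists, replicate 2 was above replicate 1 in both genotypes for 34 of the 127 genes (26.8%, beside 23.0% of all genes), with 9 of 20 other HSF1 targets, 6 of 10 other HSP70 and HSP110 genes and 0 of 10 HSF genes and regulators. Of 14 chaperones of the endoplasmic reticulum, some of which are also among the HSP70 and HSP110 genes, it held for 12 (85.7%). An example is Hspa5 (BiP), which is in both lists and was chosen after its values were seen. Hspa5 had 578 and 699 CPM in HFD-WT and 609 and 964 CPM in HFD-KO. Of 12 immediate-early genes, which respond to stimuli within minutes, replicate 2 was above replicate 1 in both genotypes for 7 (58.3%). Between genotypes, the endoplasmic reticulum list had a median log2 fold change of 0.17, with 2 genes higher and 0 lower at an unadjusted p under 0.05. The immediate-early list had a median of 0.37, with 6 higher and 1 lower, and 1 passed after adjustment (Egr1, named after its values were seen, log2 fold change 0.85, edgeR adjusted p = 0.0456). Of all genes tested, 4.25% were higher and 4.73% lower at the unadjusted threshold, and 0.0771% passed after adjustment.

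**Figure D5:**
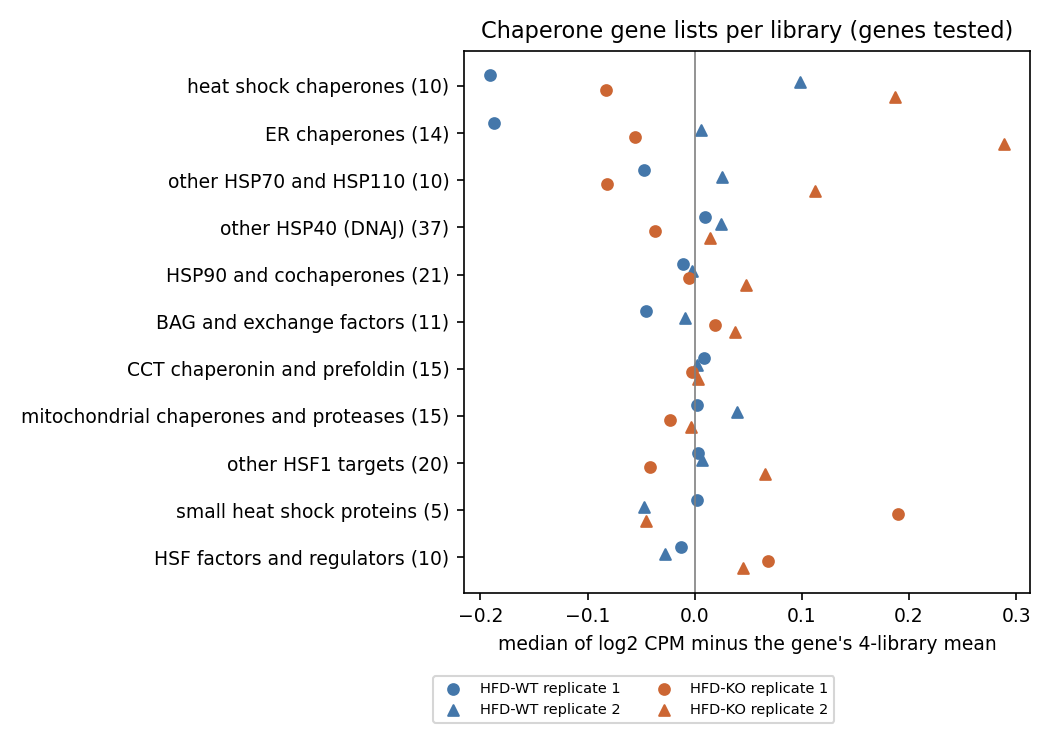
Median over the genes of each list of log2 CPM minus the gene's mean over the 4 libraries, by library (number of genes tested in brackets). The 10 heat shock chaperones run from -0.19 in HFD-WT replicate 1 and -0.08 in HFD-KO replicate 1 to 0.10 in HFD-WT replicate 2 and 0.19 in HFD-KO replicate 2, the endoplasmic reticulum chaperones spread similarly, and the CCT list stays within 0.01 of 0.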

How the data were processed

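The authors extracted liver RNA with TRIzol, made directional libraries with an MGI kit, sequenced paired reads of 100 bases on a DNBSEQ-G400RS, aligned them with the MGI alignment tool and counted genes in Partek Genomics Suite with GENCODE annotation. Versions, the use of strand and the treatment of reads that match several places are not given in the sources used here, and this could move reads between near-identical genes. The methods name mm10, while the gene positions in the table are those of GRCm39. The tests used the deposited read counts, which are whole and not normalized. The authors' RPKM values gave gene lengths, and the deposited TPM values were used to compare levels between genes. The deposited CPM values, a score on an adjusted library size, were not used. The table holds the 4 libraries and no other columns of samples.

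The test was that of edgeR 4.0.16 in R 4.3.3 (filterByExpr, TMM, quasi-likelihood test, two-sided, Benjamini-Hochberg adjustment over 12967 genes). DESeq2 1.42.0, other normalizations and filters, each library left out in turn, a replicate block and a summed Hspa1a and Hspa1b were alternatives. The procedure was also run on simulated counts with the spread of edgeR's trend. That spread is smaller than the one of Hspa1a and Hspa1b, so the run does not cover genes that vary as they do. Intervals of ratios between libraries are exact for counts, and cover counting error only, since reads are not independent molecules. Named were the 10 genes, Adarb1, Hspa1l and genes of the lists with an unadjusted p under 0.05 (at most 4 per list), and other names are marked where they occur. A gene that this rule names is not reported here. The 10 genes and all lists were chosen with earlier results of these data known. Promoter sequences came from RefSeq (GRCm38.p6) and transcripts from GENCODE M21. Python 3.11.15, pandas 2.3.3 and matplotlib 3.10.9 were used for the rest.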

Additional observations from a re-analysis of the deposited data

How the results depend on the processing

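For the 10 genes, 110 values were computed under alternatives. Of these, 94 kept direction and side of the threshold, 14 changed sign and 2 became called (Hspa1b and Hsph1 without HFD-KO replicate 1). Outside the fits that left out a library, only Hspe1 changed sign, to -0.031 with library size alone. Over the fits that lacked 1 library, the log2 fold change ran from -0.47 to 0.95 for Hspa1a, from -0.53 to 1.08 for Hspa1b, from -0.067 to 0.17 for Hspa8, from -0.036 to 0.20 for Hsp90aa1, from -0.13 to 0.50 for Hsph1, from -0.13 to 0.42 for Dnajb1, from -0.18 to -0.02 for Hspb1, from -0.093 to 0.012 for Hspd1, from -0.0079 to 0.038 for Hspe1 and from -0.24 to 0.33 for Bag3. In these fits a lone library is assumed to vary like the pair of the other genotype. The number of the 10 genes with all HFD-KO values above the HFD-WT values ran from 0 to 6, where 32.0% to 38.3% of all genes were above. The number below ran from 1 to 3, where 31.6% to 37.7% of all genes were below. All genes called ran from 0 (without HFD-WT replicate 2) to 705 (without HFD-KO replicate 1), against 10 with all libraries. Pathway genes at an unadjusted p under 0.05 ran from 3 to 11 higher and from 1 to 4 lower.

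With library size alone, 2 of the 10 genes were lower in both HFD-KO libraries, 6 of all genes were called and 4 pathway genes were lower. On deposited TPM, added after the data were seen, 2 of the 10 genes were lower in both HFD-KO libraries. Without a filter on low counts, 162 of all genes were called and 5 pathway genes were higher, and with a mean of at least 1 CPM 6 of all genes were called. DESeq2's Wald test called 115 of all genes. The counts of pathway genes here are at an unadjusted p under 0.05. The share of all genes at that threshold is not given for these settings, so these counts have no background. The causes were not tested.

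Replicate numbers 1 and 2 occur in both genotypes, but no source describes a pairing, and the deviations of equal numbers from their group means correlated at -0.09 over 12943 genes. With the replicate block, 1 of the 10 genes had an unadjusted p under 0.05 (Hspa1b, log2 fold change 0.37, edgeR adjusted p = 0.615). By adjusted p, 0 of the 10 and 20 of all genes were called. At the unadjusted threshold, 4 pathway genes were higher and 1 was lower. The share of all genes at that threshold is not given for this fit, so these unadjusted counts have no background.

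Depth limits Hspa1a, which has 32 to 81 counts. The differences between libraries of a genotype were within counting error for Hspa1a in HFD-KO, Hspb1 in HFD-WT and Hspe1 in both, and outside it for the other genes.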
